A study of Mus musculus with 24 samples.

Results

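Mouse liver ductal cells that had grown into organoids above a layer of stromal cells, without a growth-factor medium, were compared by RNA-seq with the same kind of cell taken fresh from the liver. The comparison used 4 of the 24 samples in the series, chosen by their labels: 2 samples of co-cultured organoids and 2 of freshly sorted ductal cells (fresh DCs). They belong to a transwell experiment of 12 samples, from which 2 samples of organoids grown alone in expansion medium (EM organoids) were also used, to show where the co-cultured organoids differ from the usual culture. The question was which genes ductal cells keep, lose or gain when stromal factors replace the expansion medium.

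These 3 groups came from livers of adult wild type C57BL/6 mice aged 8 to 12 weeks, with no allele or agent beyond the culture. Livers were digested with enzymes and dissociated to single cells. Fresh DCs were then sorted as EpCAM+ cells without CD45, CD11b or CD31 and were lysed before any culture. Co-cultured organoids grew from such cells for 15 days in Matrigel on a transwell insert that cells cannot cross, in mesenchymal medium, above SCA1+ mesenchymal cells (SCA1+Msc) that other littermates had supplied and that had been expanded beforehand. Mesenchymal medium held WNT3A conditioned medium and none of the growth factors of the expansion medium, which contained EGF, HGF, FGF10 and RSPO1 among others. The study's main text also names serum in mesenchymal medium, which the recipe in its methods leaves out. The stromal cells were sorted on SCA1 among cells without CD45, CD11b or CD31, and PDGFRa was not part of that sort. The study reports that organoids kept in mesenchymal medium without stromal cells grew little and could not be sequenced. What the stromal cells did and what culture in Matrigel did therefore cannot be told apart here. Co-cultured and EM organoids also differed in medium. The parts of medium and stromal cells in that comparison cannot be told apart either. Ductal cells that the study sorted in a separate experiment from 3 mice aged 12 weeks, heterozygous for a Pdgfra-H2B-GFP reporter on a C57BL/6 background, are given beside some values, with no test.

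Ductal cells, or cholangiocytes, line the bile ducts of the liver, where they modify bile by moving bicarbonate, chloride and water across an epithelium with apical cilia. They seldom divide in a healthy liver. After injury, or once embedded in Matrigel with mitogens, they re-enter the cell cycle and can form hollow organoids whose cells express progenitor genes.

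Depth, recovered from the lowest values of each column, lay between 20.4 M and 28 M reads on genes in these 6 libraries. Levels are given as TPM, a gene's share of the transcripts in its sample, adjusted for gene length and scaled to the same total in every sample, and a pair of values gives replicates 1 and 2. Replicates correlated with r = 0.968 in fresh DCs, 0.973 in EM organoids and 0.977 in co-cultured organoids, as Pearson's r across genes on the log2(TPM + 1) scale. A log2 fold change is the difference of log2(TPM + 1) between group means, positive where co-cultured organoids are higher unless another pair of groups is named, and its standard error follows the sign ±. Such values are marked log2, and n is 2 in every group. A gene was called at a Benjamini-Hochberg adjusted p under 0.05 in limma. The study calls the replicates biological and took the ductal cells from littermates, but the labels do not say which mouse gave which sample. Standard errors and p-values therefore measure only spread between samples. That spread was pooled over all 12 samples of the transwell experiment, stromal ones included, and is not that of the ductal samples alone.

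Both kinds of culture had the defining genes of ductal cells. Krt19, a keratin of duct epithelium, was at 2731 and 2612 TPM in fresh DCs, 1791 and 1580.3 TPM in EM organoids and 15435 and 14387 TPM in co-cultured organoids. Sox9, a transcription factor of duct and progenitor cells, was at 466 and 558 TPM in fresh DCs, 349.8 and 363 TPM in EM organoids and 161 and 154 TPM in co-cultured organoids. Stromal RNA was scarce in the organoids: the collagen gene Col1a1 was at 1.94 and 8.71 TPM against 6803 and 5458 TPM in the co-cultured SCA1+Msc of the lower chamber, and Pdgfra was at 0 and 0.556 TPM against 274.2 and 301.7 TPM there. Of 24 stromal markers, 0 were higher (beside 23.2% of all genes) and 6 lower (25%, beside 19.1%) than in fresh DCs. At an unadjusted p under 0.05 in limma, 0 were higher as well. The fresh sort held RNA of other liver cells. The 9 erythroid markers in the table summed to 5207 and 5314 TPM in fresh DCs and to 2.99 and 7.1 TPM in co-cultured organoids, the 30 hepatocyte markers to 8182 and 9481 against 2968 and 3091 TPM, and the 18 endothelial markers to 147.3 and 153.5 against 24.2 and 25.6 TPM. The part of these cells in the falls reported here was not tested, and in bulk samples fewer cells of a type and less RNA per cell cannot be told apart.

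Of 18136 genes tested, 4210 (23.2%) were higher and 3465 (19.1%) were lower in co-cultured organoids than in fresh DCs. A change of at least 2-fold beside the adjusted p was reached by 3257 of the former and 2760 of the latter. A further count asked which genes stayed: for 3478 genes (19.2%) the 95% interval of the change lay within 2-fold in either direction. Genes near 0 meet that bound easily on this scale, and among the 8165 genes with a mean of at least 10 TPM over the 4 samples it was met by 2275 (27.9%), a restriction chosen after seeing the data. The values of both groups did not overlap for 12683 genes (69.9%), so separation of the replicates alone singles out few genes. The plot of gene levels shows the calls together.

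**Figure D1:**
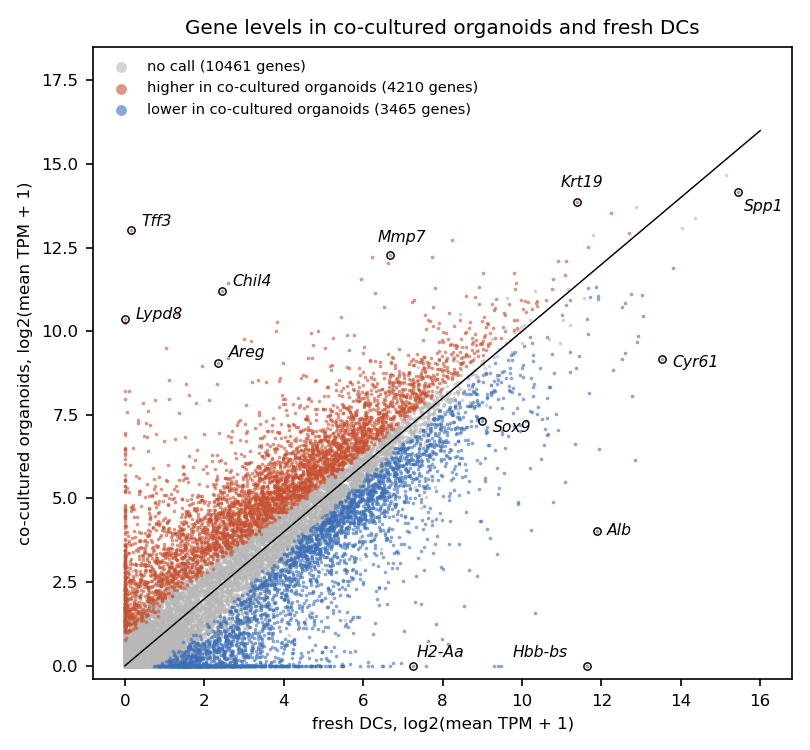
Mean level of each of 18136 genes in fresh DCs (horizontal axis) and co-cultured organoids (vertical axis), both as log2(mean TPM + 1), with the line of equal level in black and genes coloured by their limma call. The 4210 genes called higher and the 3465 called lower reach far from the line, with Tff3 and Lypd8 near 0 in fresh DCs and the haemoglobin genes at 0 in the organoids.

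Genes were then grouped by role into 26 lists, each described by how many members were called and by its median. Such counts are to be read beside the shares of all genes tested. For co-cultured organoids these were 23.2% higher and 19.1% lower than in fresh DCs, and 5.73% higher and 7.21% lower than in EM organoids. For EM organoids against fresh DCs they were 27.1% and 17.2%. All members are drawn in the plot of list members.

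**Figure D2:**
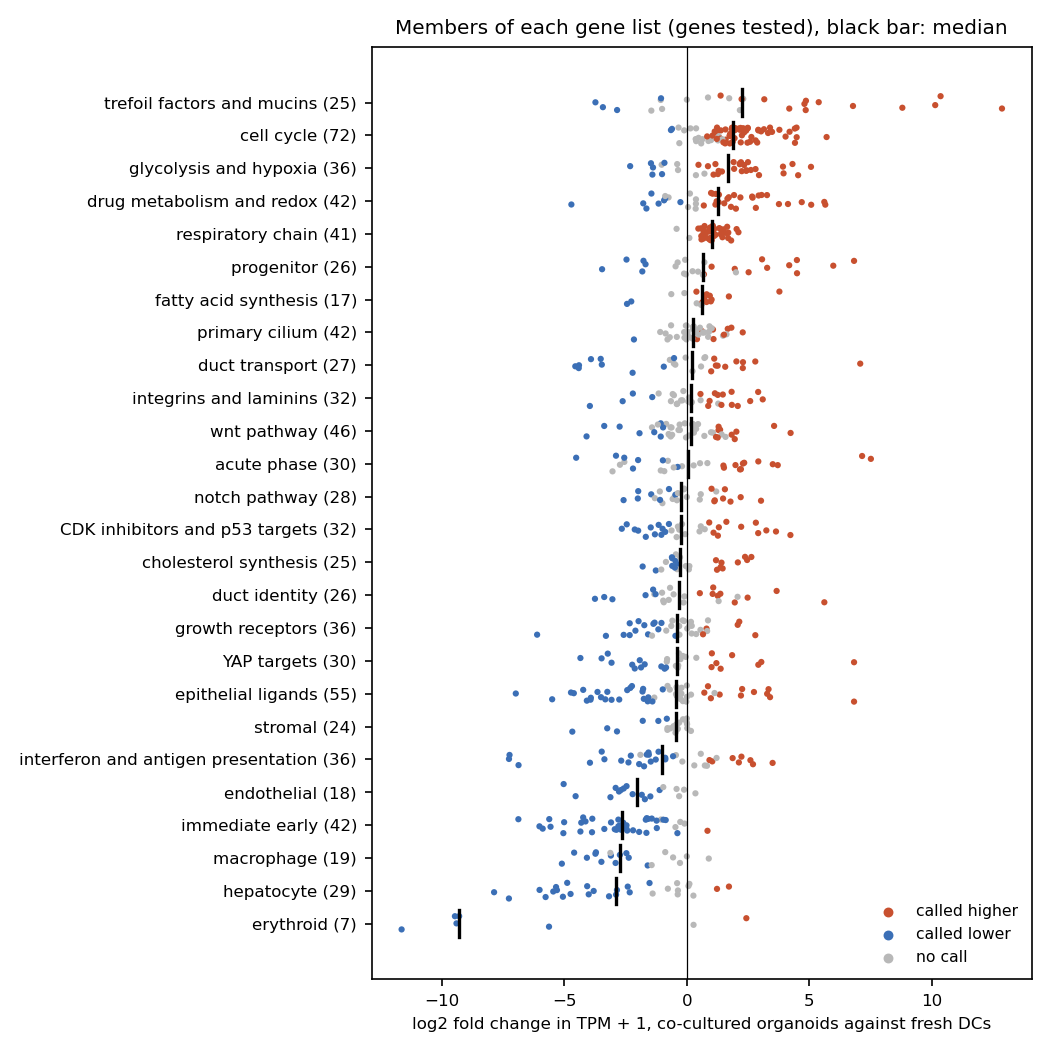
Log2 fold change of TPM + 1 between co-cultured organoids and fresh DCs for every tested member of 26 gene lists, 1 point per gene, red where called higher, blue where called lower and grey where not called, with the median as a black bar and the number of genes tested in parentheses. Medians run from 2.23 for trefoil factors and mucins to -9.3 for erythroid genes, and the immediate early list lies almost wholly to the left of 0.

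Genes of duct identity did not move in a common direction. Of 26 genes of biliary identity, 9 were called higher (34.6%, beside 23.2% of all genes) and 6 lower (23.1%, beside 19.1%), with a median log2 fold change of -0.34 (0.00 over all genes tested), and 3 (11.5%, beside 19.2% of all genes) stayed within 2-fold. The lower share was close to that of all genes. With any 1 of the 4 libraries left out, 5 to 6 were called higher. Mmp7, a matrix metalloproteinase of duct cells, rose most, from 114 and 89.6 TPM in fresh DCs to 5279.8 and 4730.3 TPM in co-cultured organoids (log2 5.61 ± 0.92, adjusted p = 9.61e-04). The keratin Krt7 rose from 153 and 143 to 1925 and 1853 TPM (log2 3.66 ± 0.53, adjusted p = 4.66e-04). Krt19 was higher in both co-cultured samples by 2.48 ± 0.69 (log2, adjusted p = 0.0162). The Krt19 call was lost when any of the 4 libraries was left out and was kept in a limma fit of the 4 samples alone (adjusted p = 0.0107).

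Other keratins and some transcription factors were lower or did not pass the test. Sox9 was lower than in fresh DCs (log2 -1.69 ± 0.19, adjusted p = 1.07e-04), and its 2 co-cultured values lay under all others. The keratin Krt23 fell from 1700.4 and 1512 to 146 and 95.2 TPM (log2 -3.75 ± 0.52, adjusted p = 3.44e-04), and the tight-junction gene Cldn4 from 8353 and 7072 to 928 and 941 TPM (log2 -3.04 ± 0.33, adjusted p = 7.37e-05). Prox1, a transcription factor of liver and duct development, fell to 2.06 and 4.51 TPM (log2 -3.37 ± 0.36, adjusted p = 6.33e-05). The sorting marker Epcam was at 3084 and 2914 TPM in fresh DCs and 1986 and 2136 TPM in co-cultured organoids. It was called lower in a limma fit of the 4 samples alone (adjusted p = 0.0491) but did not pass the test over all 12 samples (log2 -0.54 ± 0.71, adjusted p = 0.601). The plain keratins of simple epithelia, Krt8 at 17096 and 16186 TPM in fresh DCs and 9009.7 and 8323 TPM in co-cultured organoids and Krt18 at 20973 and 20693 TPM in fresh DCs and 10814 and 10522 TPM in co-cultured organoids, did not pass it either. Spp1, or osteopontin, was at 43285 and 45483 TPM in fresh DCs and 18990 and 17639 TPM in co-cultured organoids, and its call (log2 -1.28 ± 0.37, adjusted p = 0.0191) was lost when any of the 4 libraries was left out (adjusted p = 0.0795 to 0.103) and in a limma fit of the 4 samples alone (adjusted p = 0.236).

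Transport genes of the duct changed in both directions. Of 27 transport, channel and ciliopathy genes tested, 10 were called higher (37%, and 6 to 8 genes with a library left out) and 9 lower (33.3%), with a median log2 fold change of 0.23. The water channel Aqp5 was nearly absent from fresh DCs at 0.906 and 0.0959 TPM and stood at 223 and 169 TPM in co-cultured organoids, a rise of 7.08 ± 0.36 (log2, adjusted p = 9.98e-07). Aqp1, the water channel of normal cholangiocytes, went from 54.3 and 50.3 to 3.28 and 0.202 TPM (log2 -4.55 ± 0.53, adjusted p = 1.21e-04), and Aqp9 from 21.3 and 26.2 to 0 and 0.352 TPM (log2 -4.4 ± 0.43, adjusted p = 3.79e-05). Of the 3 aquaporins in the list 1 rose and 2 fell. The ductal cells of the 3 Pdgfra-H2B-GFP mice had Aqp1 at 6.85, 9.82 and 22.8 and Aqp9 at 1.43, 0.997 and 12.6. Aqp5 was at 10.3, 6.71 and 5.83 there, all in units that are not on the scale of the TPM values. The part of other liver cells of the fresh sort in the falls of Aqp1 and Aqp9 was not tested.

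Cftr, the chloride channel of bile secretion, fell from 45.1 and 49.5 to 3.68 and 3.04 TPM (log2 -3.47 ± 0.35, adjusted p = 4.83e-05). A chloride channel opened by calcium, Ano1, rose from 64.6 and 48.6 to 288 and 266 TPM (log2 2.28 ± 0.47, adjusted p = 0.00361), and the chloride and bicarbonate exchanger Slc4a2 rose from 13.8 and 11.6 to 39.8 and 38.9 TPM (log2 1.57 ± 0.22, adjusted p = 3.43e-04). The secretin receptor Sctr, through which hormone drives bicarbonate secretion, fell to 0.611 and 0 TPM from 20.7 and 8.74 (log2 -3.52 ± 0.43, adjusted p = 1.53e-04). Falls were also called for the glucose transporter Slc5a1 (log2 -3.91 ± 0.33), the drug exporter Abcb1a (log2 -4.41 ± 0.63) and the polycystic disease gene Pkhd1 (log2 -2.22 ± 0.35). The basolateral exporter of bile acid conjugates, Abcc3, rose by 2.79 ± 0.38 (log2). The cotransporter Slc12a2 stayed within 2-fold, at 44.1 and 41.3 TPM in fresh DCs and 51.3 and 49.1 TPM in co-cultured organoids.

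**Figure D3:**
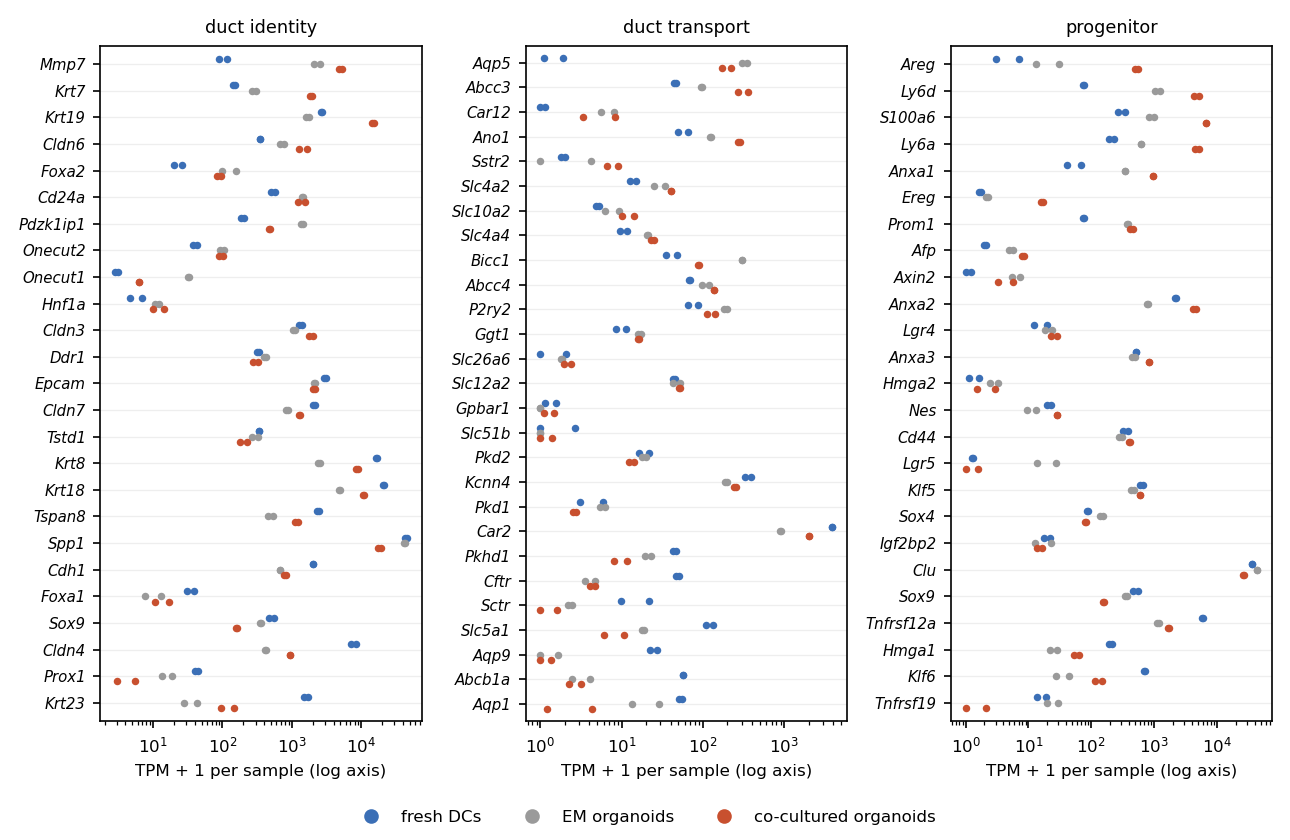
TPM + 1 on a log axis for the genes tested of the duct identity, duct transport and progenitor lists, leaving out those not reported here, 1 point per sample, with fresh DCs in blue, EM organoids in grey and co-cultured organoids in red, ordered within each list by the change between co-cultured organoids and fresh DCs. Points of 1 group lie close together for most genes, and in the duct transport list the order runs from Aqp5, high in both kinds of organoid, to Aqp1, lowest in the co-cultured ones.

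The primary cilium, the sensory antenna of cholangiocytes, is built by intraflagellar transport (IFT) proteins. Of 42 cilium genes, 8 were called higher (19%, beside 23.2% of all genes) and 1 lower (2.4%, beside 19.1%), with a median of 0.27. The share called higher was under that of all genes. Another count found 13 that stayed within 2-fold, of which 9 were among the 21 with a mean of at least 10 TPM (42.9%, beside 27.9% of all genes at that level). Fewer were called higher, and fewer stayed within 2-fold, with a library left out. Ift52 rose from 11.6 and 10.7 to 58.7 and 57.4 TPM (log2 2.28 ± 0.16, adjusted p = 5.45e-06), with Ift46 (log2 1.82 ± 0.24) and Ift27 (log2 1.67 ± 0.23) also higher. Arl13b, a small GTPase of the ciliary membrane, was the gene that fell, from 23.5 and 25.2 to 3.36 and 6.36 TPM (log2 -2.16 ± 0.28, adjusted p = 2.46e-04). In EM organoids 28 of the 42 were called higher than in the same fresh DCs (17 to 22 with a library left out, and 27.1% of all genes) and 0 lower (1 at an unadjusted p under 0.05). In the direct test between both kinds of organoid 13 of the 42 were lower after co-culture (7.21% of all genes were lower) and 0 were higher (5.73% of all genes were higher). At an unadjusted p under 0.05 the count of higher members was also 0. The count of lower ones was 6 to 11 with a library left out and 8 in a fit of these 4 samples alone. The lower genes included the dynein gene Dync2li1, at 88.5 and 67.4 TPM in fresh DCs, 207 and 193 TPM in EM organoids and 78.4 and 74.1 TPM in co-cultured organoids. Its difference between the organoids was -1.38 ± 0.14 (log2, adjusted p = 3.28e-04).

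Many of the largest rises belonged to secretory genes of the gut and stomach lining. Of 25 trefoil, mucin and related genes tested, 13 were called higher and 4 lower, with a median of 2.23. Tff3, a secreted trefoil peptide of intestinal goblet cells that protects mucosa, was at 0.236 and 0 TPM in fresh DCs, 15.6 and 6.03 TPM in EM organoids and 8380.3 and 8175 TPM in co-cultured organoids. Its change of 12.86 ± 0.35 (log2, adjusted p = 3.14e-08) was the largest of all genes named by the rule. In both co-cultured samples Tff3 was far above every other ductal sample. The gene lies at chr17:31125306-31129646 on the minus strand of GRCm38, with Tff2 (chr17:31141049-31144282) and Tff1 (chr17:31161395-31165277) beside it on the same strand.

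Tff1, the trefoil peptide of gastric surface cells, was listed at 0 in both fresh samples and at 1650.2 and 767 TPM after co-culture, at least 1124-fold higher when fresh DCs are set to their floor of 3 reads per library. Tff2, the trefoil peptide of gastric mucous neck cells, was present in fresh DCs at 74 and 82.4 TPM and rose to 2352 and 2212 TPM (log2 4.85 ± 0.64, adjusted p = 2.58e-04). EM organoids held 0.293 and 2.95 TPM of Tff1 and 156 and 183 TPM of Tff2. All 3 trefoil genes were higher in co-cultured than in EM organoids, by 9.58 ± 0.35 (log2, adjusted p = 1.01e-06) for Tff3, 8.96 ± 0.52 (log2, adjusted p = 9.59e-06) for Tff1 and 3.75 ± 0.64 (log2, adjusted p = 0.00468) for Tff2.

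Lypd8, a GPI-anchored protein of colon epithelium that holds bacteria off the mucosa, was at 0 in all 4 fresh and EM samples and at 1481 and 1158 TPM in co-cultured organoids. That is at least 3099-fold above fresh DCs and at least 3163-fold above EM organoids. Krt20, a keratin of differentiated intestinal epithelium, rose from 2.41 and 0.581 to 1596 and 1324 TPM (log2 9.29 ± 0.71, adjusted p = 8.72e-06) and Phgr1, a small gene of gut epithelium, from 6.37 and 3.8 to 2947 and 2615 TPM (log2 8.87 ± 0.72, adjusted p = 1.29e-05). Clca1, a secreted goblet-cell protein, was at 0 in fresh DCs and differed between the co-cultured replicates, at 469.6 and 127 TPM (log2 7.94 ± 0.52, adjusted p = 3.43e-06). The gastric protease Ctse rose from 5.64 and 8.32 to 914 and 816 TPM (log2 6.78 ± 0.24, adjusted p = 1.38e-07).

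Of the membrane mucins, Muc4 and Muc13 rose. Muc4 went from 0.484 and 0.476 to 47.8 and 36.8 TPM (log2 4.86 ± 0.29, adjusted p = 2.27e-06) and Muc13 from 0 to 7.36 and 8.56 TPM, at least 46.6-fold. Vsig1, a junction protein of stomach epithelium, was also at 0 in fresh DCs and reached 42.6 and 38.8 TPM. Muc1 was at 1443 and 1142 TPM in fresh DCs and 2520.5 and 2160.1 TPM in co-cultured organoids and did not pass the test. Muc6, the mucin of gastric glands, fell from 7.76 and 13.3 to 0.0239 and 0.0567 TPM (log2 -3.43 ± 0.43, adjusted p = 1.75e-04) and the pepsinogen gene Pgc (log2 -2.85 ± 0.37). Chil4, a chitinase-like secreted protein, rose from 2.6 and 6.24 to 3102 and 1657 TPM (log2 8.8 ± 0.41, adjusted p = 6.04e-07), but it shares sequence with Chil3 and its reads may be split between them.

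Further genes among the 15 largest rises had a place in epithelia outside the liver. Cdh17, an intestinal cadherin, rose from 1.4 and 0.893 to 389 and 355 TPM (log2 7.45 ± 0.36, adjusted p = 7.53e-07), and Gcnt3, an enzyme that builds mucin glycans, from 0.135 and 0 to 372 and 215 TPM (log2 8.06 ± 0.34, adjusted p = 3.41e-07). Sptssb, a subunit of the enzyme that starts sphingolipid synthesis, rose by 8.47 ± 0.24 (log2, adjusted p = 3.21e-08). Lrrc26, a subunit of epithelial potassium channels, rose by 7.4 ± 0.32 (log2) and Syt8, a synaptotagmin, by 7.29 ± 0.83 (log2). The antimicrobial genes Ltf (lactoferrin), at 5.73 and 0 TPM in fresh DCs and 661 and 337 TPM in co-cultured organoids, and Saa3, at 0.312 and 1.04 TPM in fresh DCs and 321 and 167 TPM in co-cultured organoids, completed the 15 together with Aqp5. Saa3 reads may be shared with Saa1 and Saa2. The plot of the largest changes gives every sample.

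**Figure D4:**
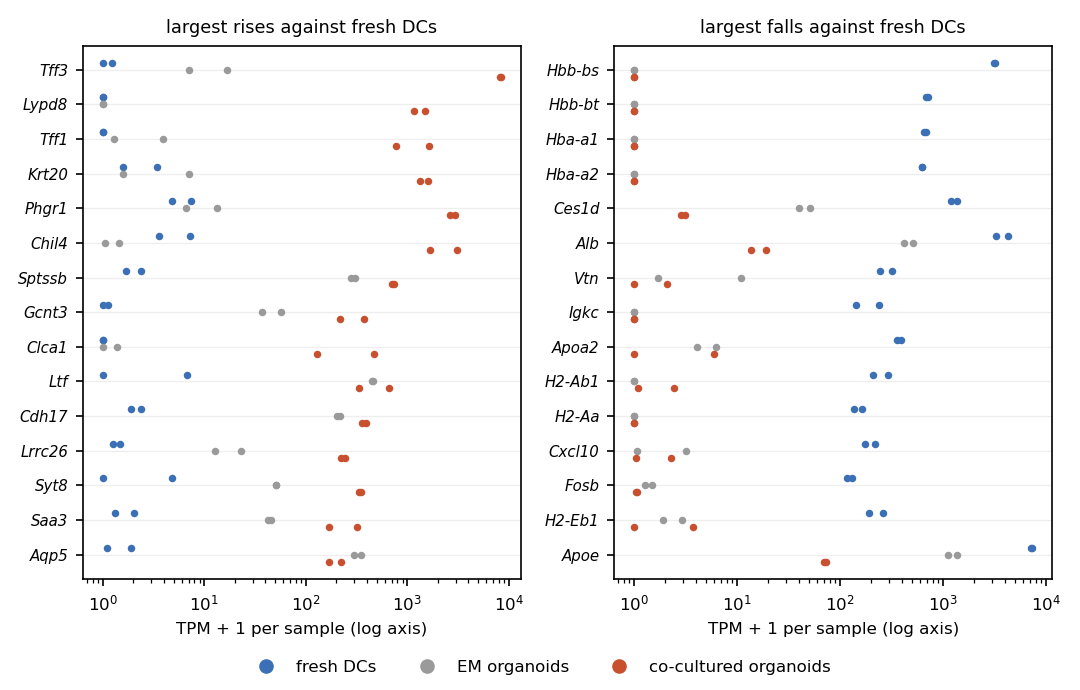
TPM + 1 per sample, on a log axis, of the 15 largest rises (left) and the 15 largest falls (right) of co-cultured organoids against fresh DCs, with fresh DCs in blue, EM organoids in grey and co-cultured organoids in red. On the left Tff3 and Lypd8 are high in the co-cultured samples alone while Cdh17, Ltf and Aqp5 are also high in EM organoids, and on the right the 4 haemoglobin genes are at 0 in every organoid sample.

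Genes that mark regenerating or fetal-like epithelium were more often higher than lower. Of 26 progenitor and regeneration genes tested, 11 were called higher (42.3%, beside 23.2% of all genes) and 5 lower (19.2%, beside 19.1%), with a median of 0.68. The lower share was that of genes in general. The EGF-family ligand Areg (amphiregulin) rose from 6.03 and 2.1 to 556 and 502 TPM (log2 6.82 ± 0.45, adjusted p = 3.73e-06) and its relative Ereg (epiregulin) from 0.788 and 0.658 to 15.1 and 16.3 TPM (log2 3.28 ± 0.19, adjusted p = 2.00e-06). Ly6a, which encodes SCA1, the surface protein on which the stromal cells were sorted, was at 229.8 and 194 TPM in fresh DCs, 612 and 621 TPM in EM organoids and 5102 and 4465 TPM in co-cultured organoids. It rose by 4.49 ± 0.13 (log2, adjusted p = 4.40e-08). The co-cultured SCA1+Msc held 1206 and 956.9 TPM of it, less than the organoids above them, in which Col1a1 was near 0 as given above.

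Ly6d, S100a6 and Anxa1, genes of stratified or injured epithelium, rose by 5.98 ± 0.55 (log2), 4.5 ± 0.12 (log2) and 4.18 ± 0.24 (log2). The stem cell surface gene Prom1 rose from 76.8 and 72.4 to 411 and 455 TPM (log2 2.52 ± 0.20, adjusted p = 1.06e-05). Lgr5, the receptor for RSPO1 and a stem cell gene, was at 0.306 and 0.249 TPM in fresh DCs, 12.8 and 26.4 TPM in EM organoids and 0.555 and 0 TPM in co-cultured organoids. The difference in Lgr5 between co-cultured and EM organoids was -3.96 ± 0.53 (log2, adjusted p = 0.00122). Cd44, Klf5, Sox4 and Clu stayed within 2-fold of fresh DCs, with Clu at 36604 and 36012 TPM in fresh DCs and 25761 and 27001 TPM in co-cultured organoids. Tnfrsf12a, the receptor for TWEAK that drives ductular reactions, fell from 5707 and 5971 to 1729 and 1690.5 TPM (log2 -1.77 ± 0.07, adjusted p = 2.22e-07), and the chromatin gene Hmga1 (log2 -1.82 ± 0.29).

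Division genes rose together. Of 72 cell cycle genes, 55 were called higher and 2 lower, with a median of 1.88. Plk1, the mitotic kinase, was at 0 in fresh DCs and at 44.3 and 58.9 TPM in co-cultured organoids, at least 203-fold higher. Cdk1, the kinase that starts mitosis, was at 2.6 and 2.13 TPM in fresh DCs, 70.9 and 64.6 TPM in EM organoids and 70 and 70.9 TPM in co-cultured organoids, a rise of 4.41 ± 0.32 (log2, adjusted p = 6.79e-06). Cdc20, which activates the anaphase-promoting complex, went from 10.4 and 13.8 to 115 and 143 TPM and Ccnb2, cyclin B2, from 6.53 and 12.6 to 101 and 123 TPM. The proliferation marker Mki67 rose by 1.96 ± 0.32 (log2, adjusted p = 8.27e-04), the replication licensing gene Mcm2 by 2.2 ± 0.24 (log2, adjusted p = 7.54e-05) and the nucleotide synthesis gene Rrm2 by 4.48 ± 0.28 (log2, adjusted p = 2.46e-06). Ccnd1, cyclin D1, rose from 228 and 222 to 547 and 506 TPM (log2 1.22 ± 0.13, adjusted p = 6.81e-05), while Ccnd2 stayed within 2-fold, at 51.4 and 63.1 TPM in fresh DCs and 74.3 and 74.2 TPM in co-cultured organoids. The D cyclins separated the organoids: Ccnd1 was higher after co-culture than in EM by 1.36 ± 0.13 (log2) and Ccnd2 lower (log2 -1.58 ± 0.15). Of the 72 genes, 2 were higher and 3 lower in that comparison, and 53 were higher and 0 lower in EM organoids than in fresh DCs (27.1% and 17.2% of all genes, with 1 of the 72 lower at an unadjusted p under 0.05).

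Promoters of genes that peak in late cell cycle phases often hold CCAAT boxes beside a cell cycle homology region, TTTGAA. The windows of Plk1, Cdc20 and Ccnb2 are shown because these genes rose together and hold both motifs, from 250 bases before to 50 after the start site (RefSeq, GRCm38.p6), 5′ to 3′ on the strand of the gene, with matches on either strand to CCAAT and TTTGAA in capitals.
Plk1: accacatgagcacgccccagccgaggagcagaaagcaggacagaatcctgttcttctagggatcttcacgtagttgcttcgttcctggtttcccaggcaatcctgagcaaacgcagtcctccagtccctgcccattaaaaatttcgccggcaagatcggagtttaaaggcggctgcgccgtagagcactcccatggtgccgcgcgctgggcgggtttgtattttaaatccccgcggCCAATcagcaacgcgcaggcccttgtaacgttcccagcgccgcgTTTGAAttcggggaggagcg
Cdc20: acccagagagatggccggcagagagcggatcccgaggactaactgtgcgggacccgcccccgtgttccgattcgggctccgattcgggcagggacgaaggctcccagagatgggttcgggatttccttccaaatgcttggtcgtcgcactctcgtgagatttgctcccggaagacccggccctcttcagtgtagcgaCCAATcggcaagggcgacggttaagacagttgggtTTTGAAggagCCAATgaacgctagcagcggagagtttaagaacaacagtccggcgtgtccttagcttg
Ccnb2: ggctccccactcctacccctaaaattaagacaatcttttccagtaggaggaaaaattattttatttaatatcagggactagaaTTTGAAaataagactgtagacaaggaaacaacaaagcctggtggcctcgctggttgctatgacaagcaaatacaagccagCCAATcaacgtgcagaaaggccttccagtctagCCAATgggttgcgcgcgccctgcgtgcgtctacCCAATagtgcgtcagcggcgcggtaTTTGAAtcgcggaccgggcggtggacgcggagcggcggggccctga
They lie at chr7:122159185-122159484 on the plus strand for Plk1, at chr4:118437294-118437593 on the minus strand for Cdc20 and at chr9:70421505-70421804 on the minus strand for Ccnb2. The Plk1 window holds 1 CCAAT and 1 TTTGAA, the Cdc20 window 2 and 1, and the Ccnb2 window 3 and 2. Windows matched 56 of the 72 genes (61 windows), and 41% of them hold both motifs against 7% of 32851 windows of all genes. Counted one motif at a time, CCAAT was found in 75.4% against 37.4%, TTTGAA in 44.3% against 17.9%, and the E2F motif TTCCCGC in 18% against 4.6%. A match is a description of the letters and not of binding.

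Genes that hold the cycle back did not move in 1 direction. Of 32 CDK inhibitors and p53 targets, 11 were called higher (7 to 9 with a library left out) and 12 lower, with a median of -0.26. The inhibitors Cdkn2b, from 57.8 and 42.3 to 341 and 368 TPM (log2 2.82 ± 0.24, adjusted p = 1.77e-05), and Cdkn2a, from 0.198 and 0 to 4.77 and 10.8 TPM (log2 2.91 ± 0.45, adjusted p = 6.28e-04), were higher, as were the p53 targets Phlda3 (log2 4.23 ± 0.15) and Ccng1 (log2 3.64 ± 0.30). Cdkn1a (p21) was at 1219 and 1261 TPM in fresh DCs, 217 and 201 TPM in EM organoids and 593 and 654 TPM in co-cultured organoids, below fresh DCs (log2 -0.99 ± 0.12, adjusted p = 1.15e-04) and above EM organoids by 1.57 ± 0.12 (log2, adjusted p = 3.68e-05). The stress genes Sesn2 (log2 -2.46 ± 0.17) and Gadd45b (log2 -2.13 ± 0.12) fell.

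Genes of energy metabolism were mostly higher. Of 36 genes of glycolysis and hypoxia, 25 were called higher and 6 lower, with a median of 1.67. Pkm, pyruvate kinase, rose from 43.1 and 50.6 to 985 and 907 TPM (log2 4.31 ± 0.15, adjusted p = 1.29e-07), lactate dehydrogenase Ldha from 216 and 217 to 1835 and 1527 TPM (log2 2.94 ± 0.15, adjusted p = 8.73e-07) and the lactate exporter Slc16a3 from 4.26 and 3.76 to 92.5 and 62.7 TPM (log2 3.95 ± 0.29, adjusted p = 7.33e-06). Car9, a carbonic anhydrase that hypoxia induces, was at 15.8 and 13.8 TPM in fresh DCs, 522 and 634 TPM in EM organoids and 567 and 492 TPM in co-cultured organoids, a rise of 5.07 ± 0.28 (log2, adjusted p = 1.48e-06). The 6 that fell included the glucose transporter Slc2a1 (log2 -1.01 ± 0.18), the hypoxia factor Hif1a (log2 -0.92 ± 0.15) and its targets Vegfa (log2 -1.41 ± 0.31) and Adm (log2 -2.32 ± 0.34). In 13 of the 36 genes the co-cultured organoids were above EM organoids and in 0 below, Pkm by 0.98 ± 0.15 (log2) among them, and 0 were below at an unadjusted p under 0.05 as well. The 13 were 7 to 10 with a library left out and 4 in a fit of these 4 samples alone. Of 41 genes of the respiratory chain, 39 were called higher and 0 lower (also 0 lower at an unadjusted p under 0.05), with a median of 1.02, Ndufa8 of complex I from 81.6 and 80.2 to 337 and 366 TPM (log2 2.11 ± 0.15, adjusted p = 5.56e-06).

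Many genes of cholesterol synthesis were higher in co-cultured than in EM organoids, and against fresh DCs they moved in both directions. Of 25 genes of the pathway, 9 were called higher than in fresh DCs (36%, beside 23.2% of all genes) and 8 lower (32%, beside 19.1%, and 3 to 5 genes with a library left out), with a median of -0.28. Among the 24 with a mean of at least 10 TPM, 10 stayed within 2-fold (41.7%, beside 27.9% of all genes at that level), and 6 to 10 of the list did so with a library left out. Hmgcs1, an early enzyme of the pathway, was at 505 and 442 TPM in fresh DCs, 117 and 105 TPM in EM organoids and 399.8 and 327 TPM in co-cultured organoids. Its change against fresh DCs was -0.38 ± 0.13 (log2), with a 95% interval of -0.67 to -0.10, and its difference from EM organoids 1.7 ± 0.13 (log2, adjusted p = 4.02e-05). The later enzymes Cyp51, at 421 and 417 TPM in fresh DCs, 78.2 and 71 TPM in EM organoids and 305 and 251 TPM in co-cultured organoids, and Hsd17b7, at 45.3 and 37 TPM in fresh DCs, 9.83 and 8.96 TPM in EM organoids and 37.8 and 29.8 TPM in co-cultured organoids, had the same order of groups. Mvd, mevalonate decarboxylase, was at 187 and 165 TPM in fresh DCs and 186 and 185 TPM in co-cultured organoids and exceeded EM organoids by 1.05 ± 0.12 (log2, adjusted p = 5.73e-04). The sterol isomerase Ebp rose from 30.5 and 36.4 to 179 and 175 TPM (log2 2.37 ± 0.20, adjusted p = 1.52e-05). EM organoids had 15 of the 25 genes lower and 8 higher than fresh DCs, with a median of -1.14 (0.12 over all genes), and co-cultured organoids had 14 higher and 0 lower than EM organoids, with a median of 0.92 (-0.13 over all genes) and 1 lower at an unadjusted p under 0.05. The 14 were 9 to 11 with a library left out and 8 in a fit of these 4 samples alone.

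Sterol-regulated promoters hold sterol response elements, searched here as TCACNCC, often beside CCAAT. The window of Hmgcs1 is shown as a gene of the pathway with both, at chr13:119690101-119690400 on the plus strand (RefSeq, GRCm38.p6, the same window), with matches in capitals and CCAAT on the opposite strand read as ATTGG.
Hmgcs1: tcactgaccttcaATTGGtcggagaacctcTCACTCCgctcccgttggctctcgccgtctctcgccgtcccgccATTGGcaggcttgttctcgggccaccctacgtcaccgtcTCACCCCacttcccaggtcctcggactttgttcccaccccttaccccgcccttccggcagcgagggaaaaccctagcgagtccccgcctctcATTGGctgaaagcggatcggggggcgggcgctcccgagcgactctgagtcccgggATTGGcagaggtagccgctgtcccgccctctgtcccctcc
It holds 2 matches to TCACNCC and 4 to CCAAT. Of 20 windows matched to 17 of the 25 genes, 80% hold CCAAT against 37.4% of all windows, while 20% hold TCACNCC against 15.6%. No binding was measured.

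**Figure D5:**
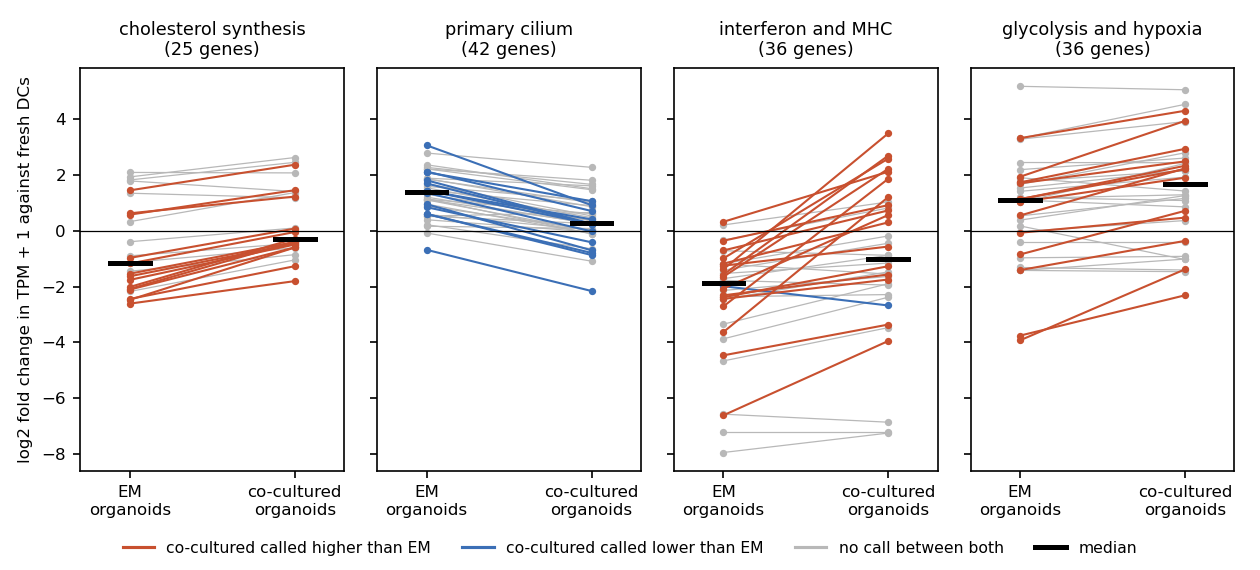
Log2 fold change against fresh DCs of each gene of 4 lists in EM organoids (left of each panel) and co-cultured organoids (right), 1 line per gene, coloured by the direct limma call between both kinds of organoid, with the median of the list as a black bar. Both sides share the same fresh samples. The median of cholesterol synthesis is -1.14 in EM and -0.28 in co-cultured organoids, that of the primary cilium 1.4 and 0.27, that of interferon and MHC genes -1.88 and -1.02, and that of glycolysis and hypoxia 1.12 and 1.67.

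Enzymes that process foreign compounds and peroxides formed another rising group. Of 42 genes tested, 27 were called higher (64.3%, beside 23.2% of all genes) and 8 lower (19%, beside 19.1%), with a median of 1.26. The lower share was that of genes in general, and fewer were called lower with a library left out. Gsta4, a glutathione transferase that clears lipid peroxidation products, rose from 48 and 72.2 to 3121 and 2898 TPM (log2 5.65 ± 0.63, adjusted p = 9.19e-05). The cytochromes Cyp2c65, from 2.05 and 0.166 to 57.4 and 68 TPM (log2 5.07 ± 0.43, adjusted p = 1.55e-05), and Cyp2s1, from 13.7 and 14 to 342 and 429 TPM (log2 4.69 ± 0.26, adjusted p = 1.40e-06), are found in gut epithelium. Cyp2b10 was at 0 in fresh and EM samples and at 7.94 and 9.42 TPM after co-culture, at least 34.9-fold above fresh DCs. Gsta1 rose from 0.486 and 2.34 to 109.8 and 106 TPM (log2 5.61 ± 0.43, adjusted p = 9.00e-06), though its reads may be shared with Gsta2. Of the stress-induced members, Hmox1 (heme oxygenase) fell from 2106 and 3039 to 122 and 74.8 TPM (log2 -4.71 ± 0.24, adjusted p = 1.02e-06) and thioredoxin reductase Txnrd1 (log2 -1.78 ± 0.10, adjusted p = 1.80e-06). Nfe2l2, the transcription factor of this response, stayed within 2-fold, at 338 and 295 TPM in fresh DCs and 340.4 and 349 TPM in co-cultured organoids. Against EM organoids 16 of the 42 were higher and 7 lower, with Gsta1 (log2 5.88 ± 0.43), Cyp2c65 (log2 5.58 ± 0.43), Cyp2s1 (log2 3.79 ± 0.26) and the microsomal transferase Mgst3 (log2 2.85 ± 0.39) among the former.

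Interferon and MHC genes were more often lower than higher. Of 36 tested, 20 were called lower (55.6%, beside 19.1% of all genes) and 8 higher (4 to 7 with a library left out), with a median of -1.02. The share called higher, 22.2%, was near the 23.2% of all genes. Oas1a, an antiviral sensor of double-stranded RNA, was at 15.1 and 7.21 TPM in fresh DCs, 3.35 and 3.49 TPM in EM organoids and 124 and 134 TPM in co-cultured organoids, a rise of 3.5 ± 0.41 (log2, adjusted p = 1.28e-04) over fresh DCs. Its relative Oasl2 rose by 2.7 ± 0.46 (log2, adjusted p = 0.00114), the transcription factor Irf7 from 26.8 and 23.8 to 134 and 111 TPM (log2 2.23 ± 0.49, adjusted p = 0.00487) and the virus-tethering gene Bst2 by 2.12 ± 0.23 (log2, adjusted p = 7.18e-05). Isg15, a ubiquitin-like interferon product, was at 85.2 and 63.2 TPM in fresh DCs, 3.34 and 7.25 TPM in EM organoids and 196 and 150.02 TPM in co-cultured organoids. It did not pass the test against fresh DCs (adjusted p = 0.157), though it was called higher in a limma fit of those 4 samples alone (adjusted p = 0.0422). Isg15 was higher than in EM organoids by 4.85 ± 0.63 (log2, adjusted p = 0.00106).

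The class I genes H2-K1, at 3401 and 3050 TPM in fresh DCs, 599.8 and 583 TPM in EM organoids and 995 and 924 TPM in co-cultured organoids, and H2-D1, at 3389 and 3023 TPM in fresh DCs, 626 and 599 TPM in EM organoids and 1370.2 and 1283 TPM in co-cultured organoids, both fell against fresh DCs. The changes were -1.75 ± 0.09 (log2, adjusted p = 1.09e-06) for H2-K1 and -1.27 ± 0.08 (log2, adjusted p = 3.43e-06) for H2-D1. Both were above EM organoids, by 0.70 ± 0.09 (log2, adjusted p = 0.00116) and 1.11 ± 0.08 (log2, adjusted p = 3.89e-05). Nlrc5, the activator of class I genes, fell from 19.3 and 23.6 to 1.45 and 0.921 TPM (log2 -3.37 ± 0.31, adjusted p = 2.49e-05) and the interferon gamma factor Irf1 from 309 and 287 to 39.4 and 52.7 TPM (log2 -2.68 ± 0.18, adjusted p = 4.10e-06). The class II genes were near 0 in the organoids: H2-Aa went from 164 and 137 TPM to 0 in both samples, at least 1305-fold lower, H2-Ab1 from 292 and 211 to 1.43 and 0.081 TPM (log2 -7.26 ± 0.43, adjusted p = 1.98e-06) and H2-Eb1 from 263 and 193 to 2.74 and 0 TPM (log2 -6.87 ± 0.54, adjusted p = 1.04e-05). The invariant chain Cd74 fell from 1782 and 1244 to 108 and 83.4 TPM (log2 -3.96 ± 0.44, adjusted p = 8.96e-05). Class II genes and Cd74 are abundant in leukocytes, whose markers moved with them: of 19 macrophage and leukocyte markers tested 12 were lower and 0 higher (also 0 higher at an unadjusted p under 0.05), with a median of -2.73, and their summed level over 25 markers went from 438.6 and 348.1 to 210.7 and 106.3 TPM, with 15 of them at 0 after co-culture. Tyrobp, an adaptor of myeloid cells, went from 34.7 and 32.1 TPM to 0. The part of leukocyte RNA in these falls was not tested. Against EM organoids 17 of the 36 interferon and MHC genes were higher (10 to 13 with a library left out, 8 in a fit of these 4 samples alone) and 1 lower, and EM organoids had 0 higher and 30 lower than fresh DCs (also 0 higher at an unadjusted p under 0.05).

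Most immediate early genes fell. Cells switch such genes on within minutes of a stimulus, and the list also holds genes of the response to tissue dissociation. Of its 42 genes, 37 were called lower (88.1%, beside 19.1% of all genes) and 1 higher (2.4%, beside 23.2%), with a median of -2.64. Fresh DCs were lysed after enzymatic digestion and sorting, and the part of that dissociation in these falls was not tested. Fosb fell from 129.6 and 116 to 0.0358 and 0.0637 TPM (log2 -6.88 ± 0.24, adjusted p = 1.38e-07) and the nuclear receptor Nr4a1 from 689.7 and 620.3 to 9.8 and 8.47 TPM (log2 -6.02 ± 0.18, adjusted p = 5.50e-08). The stress factor Atf3, at 1779 and 1739 TPM in fresh DCs, 4.62 and 3.42 TPM in EM organoids and 28.3 and 29.3 TPM in co-cultured organoids, and the AP-1 subunit Fosl1, at 2032 and 2335 TPM in fresh DCs, 5.26 and 7.15 TPM in EM organoids and 53.2 and 35.4 TPM in co-cultured organoids, both fell against fresh DCs. The changes were -5.88 ± 0.30 (log2, adjusted p = 1.00e-06) for Atf3 and -5.62 ± 0.36 (log2, adjusted p = 3.14e-06) for Fosl1. Atf3, Fosl1 and Fos, the last at 1243 and 1242 TPM in fresh DCs, 73.2 and 65.6 TPM in EM organoids and 357 and 289 TPM in co-cultured organoids, were higher in co-cultured than in EM organoids by 2.58 ± 0.30 (log2), 2.64 ± 0.36 (log2) and 2.2 ± 0.17 (log2). In that comparison 10 of the 42 were called higher (5 in a fit of these 4 samples alone) and 5 lower (Egr1, Klf2, Mafk, Socs3 and Hspa1a), and the count of lower ones was 2 with a library left out and 0 in that fit. Hspa1a has a near-identical copy with which it may share reads, as has Serpina1c among the hepatocyte genes. The gene that rose was Klf4, a factor of differentiated gut epithelium, at 19.3 and 25.5 TPM in fresh DCs, 15.1 and 16.9 TPM in EM organoids and 41.8 and 39.3 TPM in co-cultured organoids (log2 0.84 ± 0.19, adjusted p = 0.00549). The list summed to 50890 and 47584 TPM in fresh DCs and to 5771 and 5695 TPM in co-cultured organoids. The ductal cells of the 3 Pdgfra-H2B-GFP mice, dissociated and sorted as well, had sums of 70215, 58220 and 54781. These are in the deposited units of that table, which are not on the scale of the TPM values.

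Genes around YAP, the transcriptional coactivator that senses cell shape and injury, split in direction. The list holds YAP, its relative TAZ and their TEAD partners beside target genes. Of 30 genes, 8 were called higher (26.7%, beside 23.2% of all genes) and 12 lower (40%, beside 19.1%), with a median of -0.41. The higher share was close to that of all genes. Cyr61 fell from 12392 and 11019 to 599 and 549.97 TPM (log2 -4.35 ± 0.15, adjusted p = 1.08e-07) and Ankrd1 from 6070.1 and 6219.6 to 654 and 655 TPM (log2 -3.23 ± 0.45, adjusted p = 3.34e-04). The other classical target, Ctgf, rose from 40.1 and 46.5 to 181 and 138 TPM (log2 1.85 ± 0.24, adjusted p = 2.60e-04). F3, tissue factor, was at 5161 and 4941 TPM in fresh DCs, 62.3 and 56.8 TPM in EM organoids and 521 and 391 TPM in co-cultured organoids and stood above EM organoids by 2.9 ± 0.34 (log2, adjusted p = 5.89e-04). Areg, described above, also belongs to this list.

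Signals that ductal cells themselves send were more often lower than higher. Of 55 ligand genes tested, 11 were called higher (20%, beside 23.2% of all genes) and 24 lower (43.6%, beside 19.1%), with a median of -0.44. The higher share was near that of all genes, and fewer were called higher with a library left out. The 3 largest falls were chemokines: Cxcl1 from 7964 and 6030.3 to 215 and 315 TPM (log2 -4.73 ± 0.53, adjusted p = 9.10e-05), Cxcl2 (log2 -5.5 ± 0.32) and Cxcl10 from 219.5 and 174 to 0.0496 and 1.3 TPM (log2 -6.98 ± 0.61, adjusted p = 1.95e-05). The cytokine Lif (log2 -4.61 ± 0.26), the EGF-family ligand Hbegf (log2 -3.5 ± 0.19) and the stress hormone Gdf15 (log2 -4.23 ± 0.45) fell as well. The alarmin Il33 rose from 4.43 and 3.6 to 55.1 and 44.3 TPM (log2 3.33 ± 0.27, adjusted p = 1.23e-05). Il1a, an alarmin of epithelia, was at 23.5 and 11 TPM in fresh DCs, 0 and 0 TPM in EM organoids and 74.8 and 87.7 TPM in co-cultured organoids, a rise of 2.26 ± 0.35 (log2, adjusted p = 7.05e-04). Both exceeded EM organoids, Il33 by 2.88 ± 0.27 (log2) and Il1a, listed at 0 there, at least 314-fold. Ihh, a hedgehog ligand to which stromal cells respond, rose by 2.74 ± 0.27 (log2, adjusted p = 4.63e-05).

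Receptors for growth factors and cytokines, among them those for expansion medium factors, were more often lower than higher. Of 36 such receptors tested, 5 were called higher (13.9%, beside 23.2% of all genes) and 14 lower (38.9%, beside 19.1%). Their median log2 fold change was -0.39. Another count found 11 that stayed within 2-fold (30.6%, beside 19.2% of all genes), and fewer did so with a library left out. Among the 21 with a mean of at least 10 TPM, 6 stayed (28.6%, beside 27.9%), a share close to that of all genes. Met, the HGF receptor, fell from 94.7 and 82.1 to 34.1 and 35.5 TPM (log2 -1.32 ± 0.25, adjusted p = 0.00219). Fgfr2, the receptor of FGF10, was at 33.2 and 31.7 TPM in fresh DCs, 171 and 182 TPM in EM organoids and 22.4 and 36.7 TPM in co-cultured organoids, within 2-fold of fresh DCs and lower than in EM organoids (log2 -2.58 ± 0.30, adjusted p = 5.23e-04). Fgfr1 fell from 126 and 133 to 0.249 and 1.83 TPM (log2 -6.11 ± 0.32, adjusted p = 1.02e-06). Erbb2, a coreceptor for EGF-family ligands, rose from 21.7 and 20.2 to 87.3 and 105 TPM (log2 2.14 ± 0.22, adjusted p = 5.80e-05) and Mst1r, the receptor for macrophage stimulating protein, by 2.79 ± 0.30 (log2, adjusted p = 7.90e-05). The shared receptor chain of the IL6 family, Il6st, fell (log2 -2.33 ± 0.11, adjusted p = 6.57e-07) and its partner Lifr (log2 -1.97 ± 0.25, adjusted p = 1.94e-04).

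Wnt and Notch genes were called about as often as genes in general, of which 23.2% were higher and 19.1% lower. Of 46 Wnt pathway genes tested, 10 were called higher (21.7%) and 8 lower (17.4%), with a median of 0.15. The ligand Wnt7a, at 5.38 and 8.87 TPM in fresh DCs, 58.6 and 40.4 TPM in EM organoids and 157 and 140.3 TPM in co-cultured organoids, rose by 4.23 ± 0.30 (log2, adjusted p = 5.25e-06), and Porcn, the enzyme that lipidates Wnt ligands, by 3.56 ± 0.38 (log2, adjusted p = 6.46e-05). The Wnt carrier Wls rose by 1.83 ± 0.12 (log2), while the receptor Fzd9 (log2 -4.1 ± 0.67) and the inhibitor Sfrp5 (log2 -2.74 ± 0.38) fell. Of 28 Notch pathway genes tested, 8 were called higher (28.6%, and 4 genes in a fit of the 4 samples alone) and 7 lower (25%), with a median of -0.24. The transcription factor Hes6 rose from 14.3 and 21 to 152 and 146 TPM (log2 3.03 ± 0.22, adjusted p = 6.78e-06) and the receptor Notch1 fell from 15.7 and 18.6 to 2.48 and 5.0 TPM (log2 -1.99 ± 0.35, adjusted p = 0.00151).

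Laminin chains were among the genes that rose and integrins for other matrix proteins among those that fell. Of 32 integrin, laminin and basement membrane genes tested, 13 were called higher (40.6%, beside 23.2% of all genes) and 4 lower (12.5%, beside 19.1%). Their median was 0.19, and the share called lower was under that of all genes. Lamb3 and Lama3, chains of the laminin of hemidesmosomes, rose from 36.9 and 25.2 to 289 and 249.9 TPM (log2 3.1 ± 0.41, adjusted p = 2.53e-04) and from 7.71 and 2.84 to 50.4 and 35.8 TPM (log2 2.91 ± 0.43, adjusted p = 5.00e-04). Itgb4, the integrin that binds this laminin, rose by 1.83 ± 0.39 (log2, adjusted p = 0.00412). The integrins for fibronectin and vitronectin fell, Itga5 from 437 and 326 to 24.5 and 22.2 TPM (log2 -3.96 ± 0.20, adjusted p = 1.02e-06) and Itgav (log2 -2.62 ± 0.18, adjusted p = 4.19e-06). Lama3 was at 0.444 and 0.903 TPM in EM organoids, below the co-cultured ones by 4.71 ± 0.43 (log2, adjusted p = 1.41e-04).

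Most of the 15 largest falls were in genes of blood, hepatocytes and leukocytes. The adult haemoglobin genes Hbb-bs, Hbb-bt, Hba-a1 and Hba-a2 were at 3173 and 3226, 688 and 726, 664 and 689 and 628 and 627 TPM in fresh DCs and at 0 in all 4 organoid samples, at least 6120.4-fold lower for Hbb-bs. Near-identical copies of these genes may share reads. Of the 7 erythroid markers tested 5 were lower and 1 higher. The immunoglobulin gene Igkc went from 142 and 237 TPM to 0. Of 18 endothelial markers 13 were lower and 0 higher (also 0 higher at an unadjusted p under 0.05), with a median of -2.03, such as the sinusoidal lectin Clec4g, from 32.2 and 31.2 TPM to 0.

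Most hepatocyte genes were lower in both kinds of organoid than in the same fresh DCs. Of 29 tested, 19 were called lower and 2 higher after co-culture, with a median of -2.89, and 20 lower and 2 higher in EM organoids, with a median of -2.92. Between both kinds of organoid 5 were higher after co-culture (Apob, Ass1, Arg1, Glul and Hamp, of which 2 kept their call in a fit of these 4 samples alone) and 3 were lower (Trf, Serpina1c and Ahsg, of which Trf kept its call in that fit), with a median of -0.01. Albumin, Alb, was at 3274 and 4284 TPM in fresh DCs, 509 and 416 TPM in EM organoids and 12.6 and 18 TPM in co-cultured organoids, and fell (log2 -7.87 ± 1.94, adjusted p = 0.00906). The Alb call was lost without co-cultured replicate 1 or without either fresh replicate, and was kept in a limma fit of the 4 samples alone (adjusted p = 0.00738). Apoe, a lipoprotein of hepatocytes and macrophages, was at 7231 and 7435 TPM in fresh DCs, 1382 and 1135 TPM in EM organoids and 71.7 and 69.4 TPM in co-cultured organoids, below fresh DCs (log2 -6.68 ± 0.12, adjusted p = 3.42e-09) and below EM organoids (log2 -4.13 ± 0.12, adjusted p = 3.04e-07). The carboxylesterase Ces1d, at 1208 and 1367 TPM in fresh DCs, 38.9 and 49.9 TPM in EM organoids and 2.12 and 1.85 TPM in co-cultured organoids, fell (log2 -8.75 ± 0.24, adjusted p = 2.72e-08). The plasma protein genes Apoa2, at 355 and 393 TPM in fresh DCs and 0 and 4.94 TPM in co-cultured organoids, and Vtn, at 242 and 322 TPM in fresh DCs and 0 and 1.11 TPM in co-cultured organoids, were among the 15 largest falls too. Hnf4a, the master regulator of hepatocyte genes, stayed within 2-fold at 187 and 192 TPM in fresh DCs and 152 and 142 TPM in co-cultured organoids, and Ambp, a plasma protein precursor, was at 2348 and 2189.9 TPM in fresh DCs and 2469.5 and 2404 TPM in co-cultured organoids and did not pass the test. The ductal cells of the Pdgfra-H2B-GFP mice had a summed hepatocyte level of 10388, 11190 and 10116 in that table's units, and the part of hepatocyte RNA in the fresh sort was not tested.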

How the data were processed

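The authors deposited RPKM for the 12 samples of the transwell experiment (Smart-seq2 libraries, reads per kilobase of exon and scaled to the reads on genes). The submitters' processing notes name STAR 2.5.0a, featureCounts 1.6.0 and GRCm38 (mm10). TPM was made by dividing each column by its sum. Symbols had become dates in 26 of the 49568 rows, and none of these is named. The score values the authors deposited for the homeostasis experiment, in a table normalized separately, were used for 3 samples of ductal cells without a test, and 4 pooled mean columns were not used.

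Genes that reached 1 TPM in 2 or more of the 12 samples were fitted on log2(TPM + 1) with limma 3.58.1 (R 4.3.3, 1 mean per group over all 12 samples, eBayes with trend, two-sided, Benjamini-Hochberg over 18136 genes, threshold 0.05). Since the values are not counts, no count test was run. Tables were made with Python 3.11.15, numpy 2.4.6 and pandas 2.3.3. Tested on simulated data in which 200 of 18136 genes differed by 2 on the log2 scale, the fit for co-cultured organoids against fresh DCs recovered 84%, and 6.67% of its 180 calls were wrong. The changed genes were drawn only from those expressed in fresh DCs. These rates therefore do not cover genes near 0 there, nor a comparison in which as many genes change as in the data.

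Depth was recovered from low values, of which 93.1% of 50161 were whole reads within 0.02 of a read (up to 20 reads). Floors are 3 reads per library and cover counting error only. Genes were named by rule: the 15 largest rises and 15 largest falls against fresh DCs and the 8 of each against EM organoids, among genes called without overlap between replicates and with a mean of at least 10 TPM in the higher group, leaving out predicted genes, and members of 26 gene lists chosen for their role or size of change. The members and lists were chosen with earlier results of these data known, so no list was tested as a set. Motifs were searched on both strands of RefSeq promoter windows. Alternatives were another pseudocount, filter and scaling, no trend, the samples compared alone, a replicate block and leaving out each library. Values of a few single genes are not reported here.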

Additional observations from a re-analysis of the deposited data

Results flagged for a closer look

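The 16 genes with the largest differences between co-cultured and EM organoids are listed because their change against the same fresh DCs differed between both kinds of organoid in the direct limma test. Both groups of organoids share the fresh samples, so that test compares the organoids with each other.

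Of the 8 genes higher after co-culture, 7 are among the secretory and gut genes described above: Chil4 (log2 10.84 ± 0.41, adjusted p = 1.01e-06), Lypd8 (log2 10.36 ± 0.27, adjusted p = 2.55e-07), Tff3 (log2 9.58 ± 0.35, adjusted p = 1.01e-06), Tff1 (log2 8.96 ± 0.52, adjusted p = 9.59e-06), Krt20 (log2 8.77 ± 0.71, adjusted p = 6.70e-05), Phgr1 (log2 8.21 ± 0.72, adjusted p = 1.19e-04) and Clca1 (log2 7.71 ± 0.52, adjusted p = 2.18e-05), each as the log2 difference on the log2(TPM + 1) scale. Anxa10, an annexin of gastric epithelium, was at 3.85 and 1.05 TPM in fresh DCs, 0.795 and 0 TPM in EM organoids and 238 and 221 TPM in co-cultured organoids, a difference of 7.42 ± 0.43 (log2, adjusted p = 1.02e-05). Lypd8 was at 0 in EM organoids, so its fitted value depends on the pseudocount.

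Of the 8 genes lower after co-culture, 4 were high in EM organoids alone. Pcp4l1, a small calmodulin-binding protein, was at 7.59 and 6.08 TPM in fresh DCs, 256 and 239 TPM in EM organoids and 1.56 and 4.04 TPM in co-cultured organoids (log2 -6.11 ± 0.69, adjusted p = 4.91e-04). Gpc3, an oncofetal glypican, was at 9.5 and 7.78 TPM in fresh DCs, 323 and 293 TPM in EM organoids and 6.07 and 14.3 TPM in co-cultured organoids (log2 -4.89 ± 0.35, adjusted p = 3.18e-05), and Tmeff2, a transmembrane protein with follistatin domains, at 1.28 and 0.81 TPM in fresh DCs, 93.3 and 97.3 TPM in EM organoids and 2.32 and 2.91 TPM in co-cultured organoids (log2 -4.74 ± 0.48, adjusted p = 2.50e-04). Reg3b, an antimicrobial lectin, was at 0 and 0 TPM in fresh DCs, 112 and 355 TPM in EM organoids and 2.84 and 1.86 TPM in co-cultured organoids (log2 -5.92 ± 0.74, adjusted p = 8.75e-04), and its EM replicates differed.

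The other 4 were present in fresh DCs. Tmem45a was at 30.4 and 36.2 TPM in fresh DCs, 97.7 and 59.6 TPM in EM organoids and 0.914 and 2.56 TPM in co-cultured organoids (log2 -4.89 ± 0.30, adjusted p = 1.20e-05), Itih4, a plasma protein, at 26.3 and 37.1 TPM in fresh DCs, 31.4 and 23.4 TPM in EM organoids and 0.0337 and 0.919 TPM in co-cultured organoids (log2 -4.32 ± 0.37, adjusted p = 1.08e-04) and Tnfrsf19, a receptor that Wnt signalling induces, at 12.9 and 18.1 TPM in fresh DCs, 28.8 and 19.1 TPM in EM organoids and 0.0234 and 1.14 TPM in co-cultured organoids (log2 -4.05 ± 0.51, adjusted p = 9.53e-04). Apoe, with the values given above, differed (log2 -4.13 ± 0.12, adjusted p = 3.04e-07).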

How the results depend on the processing

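The number of genes called between co-cultured organoids and fresh DCs was 5893 to 6151 with any 1 library left out, 6610 in a fit of the 4 samples alone and 7293 or more with another pseudocount, filter or scaling, beside 7675, except for 7162 at a minimum TPM of 5. Of the 7675 genes, 5802 were called in the same direction in the fit of the 4 samples and 5695 to 5887 with a library left out, and 1 changed sign, under quantile normalization. Deviations from the group mean were nearly uncorrelated between samples with the same replicate number (0.0086, 0.0224 and 0.0154 between groups over 18136 genes). Such correlations cannot exclude a pairing by mouse, since the labels do not tie the numbers to mice. With the replicate number as a block 7393 genes were called. Between co-cultured and EM organoids the count of 2348 fell to 997 in the fit of those 4 samples alone and to 1231 to 1462 with a library left out. Where a library is left out its group has 1 sample, which is assumed to vary like the other groups. Quantile normalization moved the median of all genes in that comparison from -0.13 to -0.01, and the share of calls that were higher from 44.3% to 54.1%. It lowered that share from 61.1% to 52.2% between EM organoids and fresh DCs.

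Genes kept within 2-fold numbered 3478, but 2237 with a pseudocount of 0.1, 10315 without a filter on low values, 7443 on the RPKM as deposited and 2275 with a mean of at least 10 TPM, and 2320 to 2504 with a library left out. The cause of the other shifts was not tested. Of 166 named genes called against fresh DCs, 5 lost the call without at least 1 library (Alb, C3, Hmgcs1, Krt19 and Spp1). Of 60 named differences from EM organoids, 4 lost the call without at least 1 library (Apob, Hspa1a, Mafk and Socs3), and 19 lost it in the fit of those 4 samples alone (these 4 with Ahsg, Ass1, Clca1, Egr1, Fgfr2, Fosl1, Hamp, Itih4, Klf2, Krt20, Lgr5, Reg3b, Serpina1c, Tmem45a and Tnfrsf19, adjusted p 0.0506 to 0.115). Hspa1a and Socs3 also lost it with the replicate block. No named gene changed sign. The median of the Wnt list, 0.15, ranged from -0.04 to 0.25. With 2 samples a group the spread rests on few values, and depth was recovered from low values, since the sources used here do not state it.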

Other observations

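Acute phase and complement genes were on in ductal cells of every group, with different members high in each. Of 30 such genes, 12 were called higher (40%, beside 23.2% of all genes) and 7 lower (23.3%, beside 19.1%) in co-cultured organoids than in fresh DCs. The lower share was close to that of all genes. Their median log2 fold change of 0.04 ranged from -0.48 to 0.46 over the alternatives. Wfdc2, a protease inhibitor of mucosal epithelia, was at 248 and 197 TPM in fresh DCs, 2008 and 2350.2 TPM in EM organoids and 2450.5 and 2594 TPM in co-cultured organoids, a rise over fresh DCs of 3.51 ± 0.46 (log2, adjusted p = 2.34e-04). Lbp, which carries bacterial lipopolysaccharide, rose from 24.9 and 28.5 to 396 and 328 TPM (log2 3.71 ± 0.14, adjusted p = 2.16e-07) and stood at 853 and 859 TPM in EM organoids, above the co-cultured ones (log2 -1.24 ± 0.14, adjusted p = 5.30e-04). Lcn2, lipocalin 2, which withholds iron from bacteria, was at 8131 and 6796 TPM in fresh DCs, 17958 and 17680 TPM in EM organoids and 16300 and 10825 TPM in co-cultured organoids and did not pass the test against fresh DCs. The complement gene C3 was at 1212 and 1142 TPM in fresh DCs, 2914 and 3048 TPM in EM organoids and 895 and 915 TPM in co-cultured organoids, lower after co-culture than in EM (log2 -1.72 ± 0.09, adjusted p = 5.80e-06).

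Fatty acid synthesis rose in part. Of 17 genes, 10 were called higher and 2 lower than in fresh DCs, with a median of 0.63. Scd2, a desaturase that makes oleic acid, was at 35.3 and 36.7 TPM in fresh DCs, 446 and 419 TPM in EM organoids and 519 and 493 TPM in co-cultured organoids, a rise of 3.78 ± 0.09 (log2, adjusted p = 1.14e-08). Malic enzyme, Me1, which supplies NADPH for synthesis, rose by 1.71 ± 0.18 (log2, adjusted p = 7.27e-05). Against EM organoids 2 of the 17 were higher and 4 lower.

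A member of the stromal list was expressed by the organoids themselves. Gas6, a ligand of the receptor Axl, was at 874 and 851 TPM in fresh DCs, 2993 and 2631 TPM in EM organoids and 662 and 674 TPM in co-cultured organoids and made up most of the summed level of the 24 stromal markers in co-cultured organoids (670.8 and 710.6 TPM). Axl was at 7.04 and 7.68 TPM in fresh DCs and 48.2 and 79.9 TPM in co-cultured organoids, a rise of 2.92 ± 0.20 (log2, adjusted p = 4.94e-06). Gas6 was lower than in EM organoids (log2 -2.07 ± 0.17, adjusted p = 8.01e-05).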
